A study of Mus musculus with 6 samples.

Results

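The C1q/TNF-related proteins are a family of secreted hormones built like adiponectin. The genes described here are 8 of the 19131 genes in the deposited tables, taken by symbol: C1qtnf1, C1qtnf2, C1qtnf3, C1qtnf5, C1qtnf6, C1qtnf7, C1qtnf9 and C1qtnf12. They were chosen with the knockout and control values of these same libraries known, in particular the difference in C1qtnf9. Their differences between the groups are therefore given as a description, without a test.

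The libraries came from skin of mouse embryos at embryonic day 17.5. There were 3 libraries of Tie1 knockout skin, whose titles read Tie1ECDKO, and 3 of control skin, whose titles read Tie1ECDWT. Both groups were on the C57BL/6N background, and the letters ECD are not explained in the labels. The labels also do not say in which cells Tie1 was deleted, whether a library came from 1 embryo, or the body site of the skin, so the spread between libraries may be partly technical.

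Each of the 8 members carries a collagen-like stretch and, at its end, a globular C1q domain whose fold resembles that of tumor necrosis factor. The proteins assemble as trimers and larger complexes and circulate, and several of them act on fuel use, on vessel tone and on matrix. In skin they can come from several cell types, among them dermal fibroblasts and the fat cells that form below the dermis late in gestation. In whole skin a fall in a transcript from fewer cells of a type and one from less RNA per cell cannot be told apart.

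C1qtnf9 was the family member with the widest gap between the groups. Its promoter and those of C1qtnf3 and C1qtnf2 are shown because these genes have, in that order, the largest difference upward, the largest difference downward and almost none. The stretches are the 250 bases before the RefSeq start site (GRCm38.p6), written 5′ to 3′ on the strand of the gene, with CpG dinucleotides in capitals.
C1qtnf9, chr14:60767884-60768133, plus strand: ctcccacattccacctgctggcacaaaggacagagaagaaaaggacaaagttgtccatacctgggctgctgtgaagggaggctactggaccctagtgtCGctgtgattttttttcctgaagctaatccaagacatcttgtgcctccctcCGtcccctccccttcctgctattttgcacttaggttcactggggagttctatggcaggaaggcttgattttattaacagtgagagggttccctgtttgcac
C1qtnf3, chr15:10952082-10952331, plus strand: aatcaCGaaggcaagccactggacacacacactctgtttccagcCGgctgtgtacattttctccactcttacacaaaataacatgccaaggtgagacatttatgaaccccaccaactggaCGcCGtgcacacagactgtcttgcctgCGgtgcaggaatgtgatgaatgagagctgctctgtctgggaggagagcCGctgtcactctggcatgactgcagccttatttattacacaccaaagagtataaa
C1qtnf2, chr11:43474056-43474305, plus strand: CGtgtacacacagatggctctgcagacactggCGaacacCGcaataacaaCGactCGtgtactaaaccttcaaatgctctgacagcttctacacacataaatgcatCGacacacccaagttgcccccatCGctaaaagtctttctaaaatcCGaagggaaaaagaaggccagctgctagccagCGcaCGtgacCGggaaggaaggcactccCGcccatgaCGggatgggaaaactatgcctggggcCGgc

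The C1qtnf9 stretch held 2 CpGs, that of C1qtnf3 held 6 and that of C1qtnf2 held 14, against a median of 6 over 32851 promoter windows of the same length. RefSeq had an entry for 6 of the 8 members. Both strands were searched for 6 motifs, none of whose matches overlapped another: TATAAA, the CCAAT box, the GC box GGGCGG, the E-box CACGTG, the forkhead motif TGTTTAC and the ETS motif GGAAGT. The C1qtnf9 stretch held none of them, which says only that these letters are not in this window. The C1qtnf3 stretch held TATAAA with its first base 6 bases before the annotated start, a motif found in 12.4% of all windows. The C1qtnf2 stretch held the E-box (6.0% of windows) and the GC box (32.7% of windows), with their first bases 65 and 40 bases before the start.

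Library totals ran from 19826856 to 20591164 estimated reads. Counts of any 2 libraries varied by 9.883 to 49.3 times what sampling alone gives, so none was deposited more than once. Tie1 itself stood at 3.07 ± 1.11 CPM (reads of a gene per 1000000 counted reads, scaled by TMM) in knockout skin, against 56.4 ± 5.02 CPM in control skin (mean ± SD of 3 libraries each), so every library matched its label. All 9 fibroblast and all 8 epidermal markers were above 3 reads in every library. Summed, the fibroblast markers reached 35568 to 38581 CPM in knockout skin, against 33814 to 39858 CPM in control skin. Knockout 1 and control 1 stood apart in hair follicle content. The 12 hair follicle markers summed to 381, 763 and 918 CPM in the knockout libraries and to 439, 858 and 1030 CPM in the control libraries.

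All 8 members passed the filter on low counts. Of the 8, edgeR's quasi-likelihood test called 1, C1qtnf9, as higher at an adjusted p under 0.05, where 0.160% of the 15035 genes tested were called in either direction and 0.0865% as higher. Because the members were chosen with this contrast known, nothing is read from that count. Summed over the 8 members, the level was 422, 414 and 432 CPM in the knockout libraries and 452, 441 and 419 CPM in the control libraries, and the groups overlapped. The median log2 fold change of the members was −0.047, beside 0.0038 over all genes tested.

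**Figure D1:**
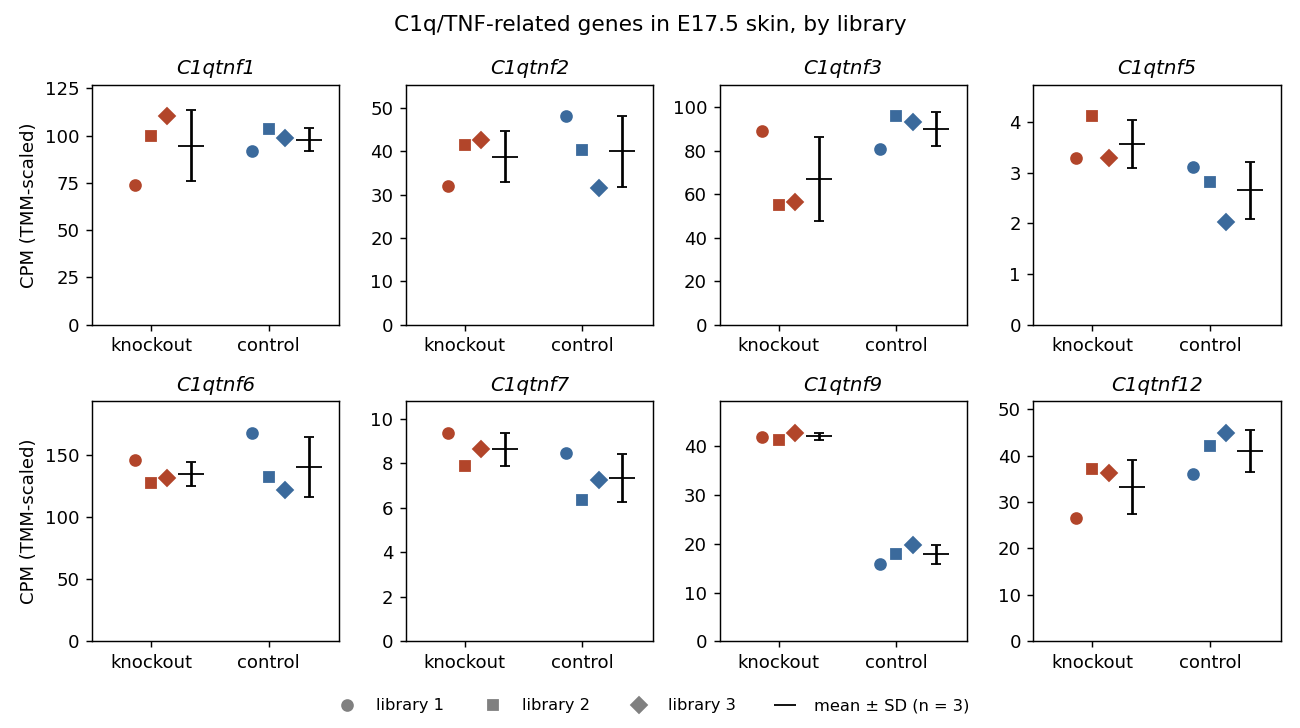
CPM of each of the 8 family members in the 3 knockout and 3 control libraries (points; marker shape gives the library number), with mean ± SD. The C1qtnf9 points of the knockout lie between 41.3 and 42.8 CPM and those of the control between 15.8 and 19.7 CPM, while C1qtnf1, C1qtnf2 and C1qtnf6 overlap widely.

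C1qtnf9 encodes CTRP9, the closest relative of adiponectin in the family, known in mice for relaxing vessels and protecting the heart. It held 815, 833 and 872 estimated reads in the knockout libraries and 321, 363 and 399 in the control libraries. In CPM this was 42.0, 41.3 and 42.8 in knockout skin, against 15.8, 18.0 and 19.7 in control skin. Every knockout library was more than 20 CPM above every control library, a separation that 7.03% of all genes tested showed in this direction at any size, and the 3 knockout values lay within 2 CPM of each other. The means were 42.0 ± 0.746 CPM and 17.8 ± 1.93 CPM (SD, n = 3 each), a log2 fold change of 1.24 (SE 0.093), or 2.36-fold. C1qtnf9 made up 9.96, 9.98 and 9.91% of the summed CPM of the 8 members in the knockout libraries and 3.50, 4.08 and 4.70% in the control libraries.

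Its log2 fold change was 1.16 (SE 0.094) without knockout 1 and control 1, and 1.16 to 1.31 with any 1 library left out, and it ranged from 1.16 to 1.38 over all settings. The call in the full comparison was lost without knockout 2 and without control 2, fits in which 1 and 3 genes of the whole table were called. The 7 macrophage markers summed to 424, 377 and 384 CPM in knockout skin, against 378, 274 and 313 CPM in control skin, and the groups overlapped, since control 1 lay just above knockout 2. Their mean log2 CPM was 5.29, 5.21 and 5.23 in knockout skin, against 5.20, 4.70 and 4.97 in control skin, and by this measure every knockout library was above every control library. The 9 pan-endothelial markers other than Tie1 summed to 627, 580 and 688 CPM in knockout skin, against 663, 568 and 601 CPM in control skin, and these sums overlapped as well. The sum joins markers that went different ways. Of the 9, 1 (Pecam1) was higher and 2 (Kdr and Emcn) were lower in every knockout library than in every control library. That is 33.3% without overlap, beside 13.8% of all genes tested. The 7 mast cell markers summed to 1423, 1447 and 1450 CPM in knockout skin, against 2908, 2291 and 2190 CPM in control skin, with every knockout library below every control library. The part of these cells in the C1qtnf9 difference was not tested.

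C1qtnf9 spans chromosome 14, 60768134 to 60780869 (GRCm38, plus strand). Spata13, a guanine nucleotide exchange factor gene that ends 3578 bases upstream, differed by 0.26 on the log2 scale (SE 0.13; adjusted p = 0.709 by edgeR). Mipep, a mitochondrial peptidase gene that starts 3704 bases downstream, differed by −0.11 (SE 0.11; adjusted p = 0.846 by edgeR). The antisense transcript Mipepos overlaps the gene body but shares 0 exonic bases with C1qtnf9. Whether the neighbours differ from C1qtnf9 was not tested.

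C1qtnf3 encodes CTRP3, also called cartducin, first known from developing cartilage and also made by fat tissue. Its level was 89.0, 54.9 and 56.4 CPM in knockout skin, against 80.8, 95.8 and 93.1 CPM in control skin. Knockout 2 and knockout 3 were below every control library, and knockout 1 lay among the controls. The log2 fold change was −0.43 (SE 0.20). It was −0.76 (SE 0.072) without knockout 1 and control 1, −0.69 without knockout 1 alone, and −0.24 (SE 0.23) with the posterior Hox score, the mean level of genes that mark the rear of the body, as a covariate. In the fit without knockout 1 and control 1 edgeR called C1qtnf3 lower, as it did 0.458% of the genes tested there, and nothing is read from that call. The 10 cartilage markers summed to 73.3, 79.5 and 85.8 CPM in knockout skin, against 64.0, 83.8 and 82.2 CPM in control skin, with Col2a1, Matn1, Matn3 and Comp at or under 3 reads in at least 1 library. Their mean log2 CPM was 0.58, 0.37 and 0.39 in knockout skin, against 0.66, 1.08 and 0.71 in control skin, so that by this measure every knockout library was below every control library. Comp, a cartilage matrix gene, held 2, 3 and 3 reads in knockout skin, against 22, 15 and 25 in control skin (log2 difference −2.88, SE 0.40; adjusted p = 0.0615 by edgeR). Hapln1, of the same list, went the other way, at 30.7 ± 2.36 CPM in knockout skin, against 20.3 ± 2.91 CPM in control skin. Its log2 difference was 0.60 (SE 0.12; adjusted p = 0.171 by edgeR). Of the 7 cartilage markers tested, 5 had a log2 fold change below 0 and 2 above it. The part of cartilage in the C1qtnf3 values was not tested.

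C1qtnf12 encodes adipolin, an insulin-sensitizing hormone of fat tissue. It stood at 26.5, 37.1 and 36.2 CPM in knockout skin, against 36.1, 42.1 and 44.9 CPM in control skin. The groups overlapped only through control 1, which lay just below both knockout 2 and knockout 3. The log2 fold change was −0.30 (SE 0.15), −0.25 (SE 0.082) without knockout 1 and control 1, and −0.16 (SE 0.11) without knockout 1 alone. The lowest library of each group was its library 1, the one with the lowest hair follicle sum. The white adipocyte markers, whose values are given with Adipoq, had a lower mean log2 CPM in every knockout library than in every control library, and their part in the values of C1qtnf12 and C1qtnf3 was not tested.

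C1qtnf5 encodes CTRP5, whose human gene is mutated in a late-onset retinal degeneration. It was low, with 64, 83 and 67 estimated reads in the knockout libraries and 63, 57 and 41 in the control libraries. In CPM these were 3.30, 4.12 and 3.29 in knockout skin, against 3.11, 2.82 and 2.02 in control skin, so the groups did not overlap, by a margin of less than 0.2 CPM. The log2 fold change was 0.43 (SE 0.22), 0.26 (SE 0.21) without control 3, and 0.17 (SE 0.24) with the posterior Hox score as a covariate. That score was 3.50, 3.76 and 3.76 in knockout skin, against 3.74, 3.13 and 2.71 in control skin (mean log2 CPM of 8 genes). Its genes went both ways: 5 had a log2 fold change above 0 and 3 below it.

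The C1qtnf5 value carries a further limit. The gene (chromosome 9, 44107245 to 44109187, plus strand) lies inside the annotated span of Mfrp, the frizzled-related gene with which it shares a transcript, and 1589 exonic bases are common to both. Mfrp held 5, 3 and 4 estimated reads in knockout skin, against 4, 4 and 2 in control skin, so little of the shared sequence was assigned to it. C1qtnf5 also shares 648 exonic bases with Gm20444, on the opposite strand. C1qtnf1 likewise shares 642 with Gm11747, and C1qtnf6 shares 117 with Gm49490. By symbol, none of these opposite-strand genes is among those counted. Whether their reads were counted to the members was not tested.

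C1qtnf7 encodes CTRP7, a protein that in mice affects glucose handling. It stood at 9.38, 7.88 and 8.64 CPM in knockout skin, against 8.49, 6.34 and 7.26 CPM in control skin. The groups overlapped, and the log2 fold change was 0.23 (SE 0.15), or 0.13 (SE 0.15) without control 2 and 0.15 (SE 0.19) with the posterior Hox score. In both groups the first library was the highest and the second the lowest.

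The remaining members had mean levels within 10% of each other in the 2 groups. C1qtnf6, which encodes CTRP6, a protein that restrains the alternative complement pathway in mice, averaged 135 ± 9.66 CPM in knockout skin, against 141 ± 24.2 CPM in control skin, a log2 fold change of −0.061 (SE 0.12). C1qtnf1, which encodes CTRP1, a protein of vessel walls and fat, averaged 94.6 ± 18.6 CPM in knockout skin, against 97.9 ± 5.97 CPM in control skin, a log2 fold change of −0.049 (SE 0.14). C1qtnf2, whose product CTRP2 affects lipid handling in mice, averaged 38.7 ± 5.85 CPM in knockout skin, against 40.0 ± 8.26 CPM in control skin, a log2 fold change of −0.045 (SE 0.18; SD and n = 3 for all). Each of these 3 differences was smaller than its SE and changed sign without knockout 1 and control 1. They were then 0.026 (SE 0.071), 0.054 (SE 0.075) and 0.23 (SE 0.12) for C1qtnf6, C1qtnf1 and C1qtnf2. With the posterior Hox score they were −0.22 (SE 0.12), −0.065 (SE 0.21) and −0.34 (SE 0.12). For C1qtnf2 the values under these settings thus had opposite signs, each larger than its SE.

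**Figure D2:**
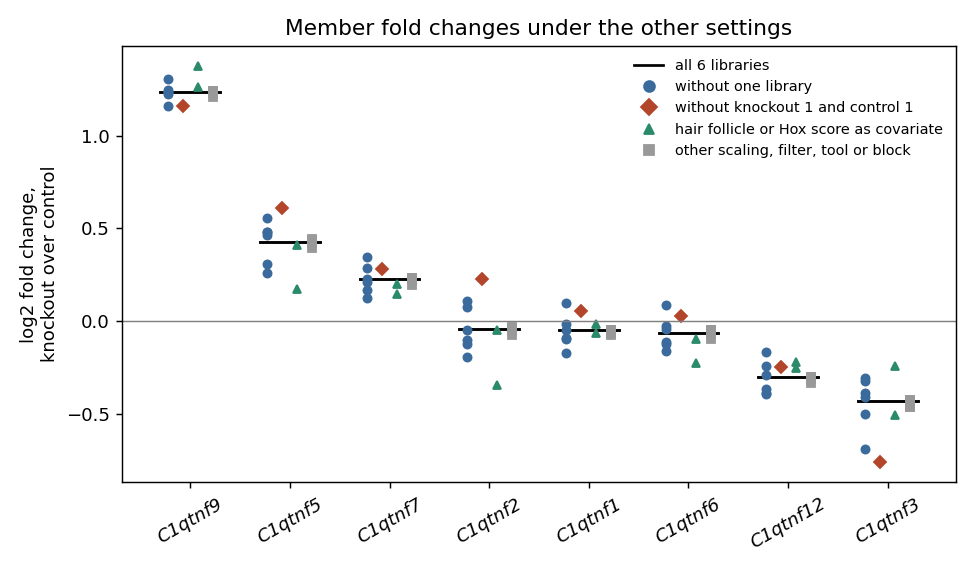
Log2 fold change of each member, knockout over control, with all 6 libraries (black line) and under each of the other settings (points). C1qtnf9 stays between 1.16 and 1.38, C1qtnf3 ranges from −0.76 to −0.24, and C1qtnf1, C1qtnf2 and C1qtnf6 lie on both sides of 0.

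For 4 of the 8 members, knockout 1 and control 1 were at the same extreme of their groups. The share of all genes that did so was not counted, so the number is not read as a trait of the family. Over all genes tested, the deviations of these libraries from their group means correlated at 0.411. C1qtnf1 and C1qtnf12 were lowest in both, and C1qtnf6 and C1qtnf7 were highest in both. C1qtnf6, for example, stood at 146, 127 and 131 CPM in knockout skin, against 168, 132 and 122 CPM in control skin. C1qtnf1 stood at 74.0, 99.7 and 110 CPM in knockout skin, against 91.6, 103 and 98.7 CPM in control skin. These are the libraries with the lowest hair follicle sums, and the part of hair follicle content in these values was not tested. With the hair follicle score as a covariate the log2 fold changes were −0.014 for C1qtnf1, −0.097 for C1qtnf6, 0.20 for C1qtnf7 and −0.25 for C1qtnf12.

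**Figure D3:**
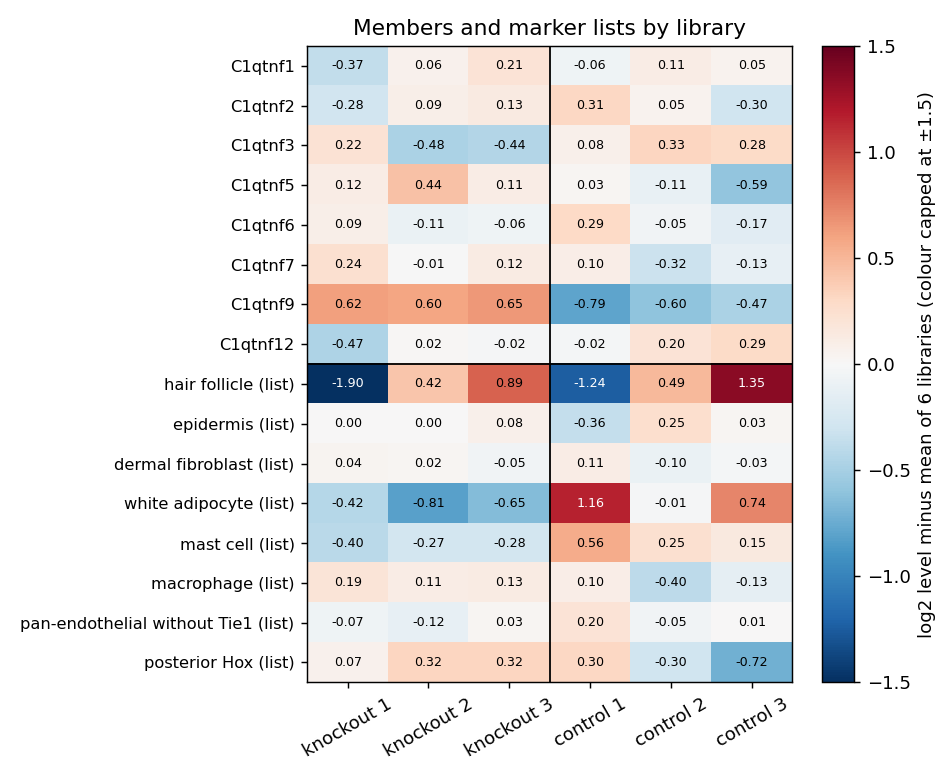
Log2 level of each member (top) and mean log2 level of marker lists (bottom) in each library, minus the mean of the 6 libraries. C1qtnf9 is positive in all 3 knockout and negative in all 3 control libraries, while the hair follicle list is lowest in knockout 1 (−1.90) and control 1 (−1.24).

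Levels were compared between members after division by the length of the longest coding transcript. By this measure C1qtnf6 was the highest, at 56.1 ± 4.02 CPM per kb in knockout skin, against 58.6 ± 10.1 CPM per kb in control skin. It lay above every other member in 6 of the 6 libraries. With median transcript lengths C1qtnf1 came close to it, with means of 59.2 CPM per kb in knockout skin and 61.3 in control skin, against 61.3 and 63.9 for C1qtnf6, and lay above it in 4 of the 6 libraries, so which gene leads in a library depends on the length used. By longest transcript, C1qtnf1, C1qtnf3, C1qtnf2 and C1qtnf12 followed, with knockout means of 37.4, 28.6, 32.0 and 25.3 CPM per kb and control means of 38.7, 38.4, 33.0 and 31.2 CPM per kb. Within these 4 the neighbours in the order overlapped from library to library. C1qtnf5 and C1qtnf7 were lowest, with knockout means of 2.61 and 2.23 CPM per kb and control means of 1.94 and 1.90 CPM per kb, and they overlapped too.

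C1qtnf9 stood at 22.1, 21.7 and 22.5 CPM per kb in knockout skin, within the span of C1qtnf12 there (20.2, 28.2 and 27.5 CPM per kb). In control skin it stood at 8.32, 9.45 and 10.4 CPM per kb, below every library of C1qtnf12 (27.4, 32.1 and 34.2 CPM per kb). It ranked number 6 of the 8 in both groups. With median transcript lengths its rank was also 6 in both groups, while C1qtnf5 and C1qtnf7 exchanged places.

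**Figure D4:**
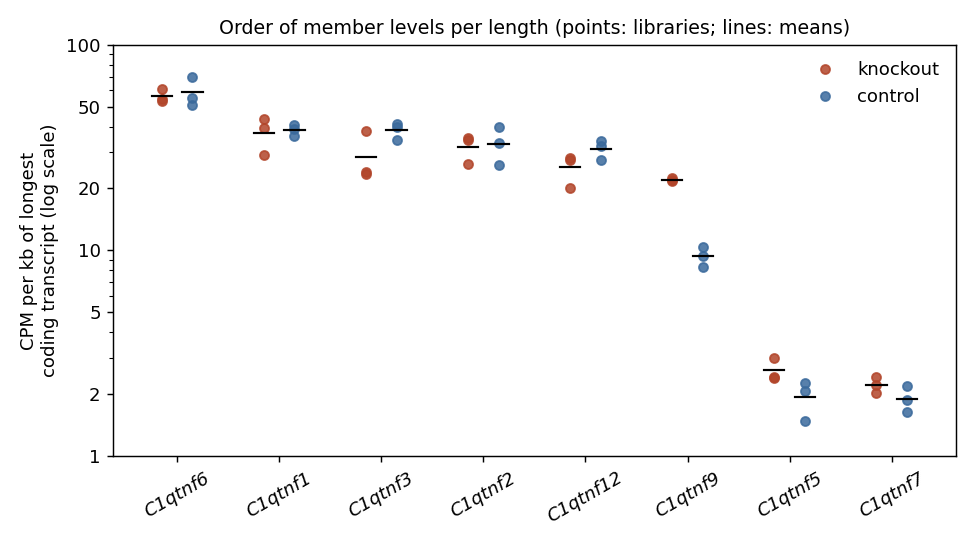
CPM per kilobase of the longest coding transcript for each member on a log axis, knockout left of control (points, libraries; lines, means of 3). By this length C1qtnf6 is highest at 56.1 and 58.6 CPM per kb, and C1qtnf9 is the member whose groups lie farthest apart, at 22.1 and 9.37 CPM per kb.

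Likeness of pattern was measured as Pearson's r of log2 CPM over the 6 libraries against 12019 genes that averaged 5 CPM or more, and it is given as a description. The gene most like C1qtnf9 was Esm1 (r = 0.995), the endocan gene of sprouting endothelial tip cells, at 21.0, 16.9 and 16.0 CPM in knockout skin, against 0.543, 0.743 and 0.839 CPM in control skin. Next came Tet2 (r = 0.995), a DNA demethylation enzyme gene, at 55.7, 55.2 and 56.3 CPM in knockout skin, against 49.7, 50.2 and 50.6 CPM in control skin. The pair shows how little r depends on size, since the log2 fold change was 4.65 (SE 0.20) for Esm1 and 0.15 (SE 0.057) for Tet2. C1qtnf12 was most like Lgals12 (r = 0.997), the galectin-12 gene of fat cells, and C1qtnf6 most like Abca9 (r = 0.995), a lipid transporter gene. C1qtnf5 was most like Mga (r = 0.998) and C1qtnf1 most like Ammecr1l (r = 0.994). For C1qtnf2, C1qtnf3 and C1qtnf7 the highest values were 0.988 with Slf2, 0.986 with Zfp691 and 0.985 with Tmem143. With 6 points and so many genes, every member found a partner above 0.98, so a high r sets no member apart.

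The other genes of the superfamily and the reported receptors were not chosen for the contrast, although they too were listed with earlier results of these libraries known. Of 30 such genes 24 could be tested, and edgeR called 0 at an adjusted p under 0.05. At an unadjusted p under 0.05 in edgeR there were 2 higher (Col8a1 and Cdh13) and 1 lower (Adipoq). Over all 15035 genes tested there were 613 higher and 503 lower at that level. DESeq2 called 2, where it called 210 over the whole table, and limma-voom called 0, where it called 15. The median log2 fold change of the 24 was 0.11, beside 0.0038 over all genes tested, and 20.8% of them did not overlap between the groups, beside 13.8% of all genes tested.

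**Figure D5:**
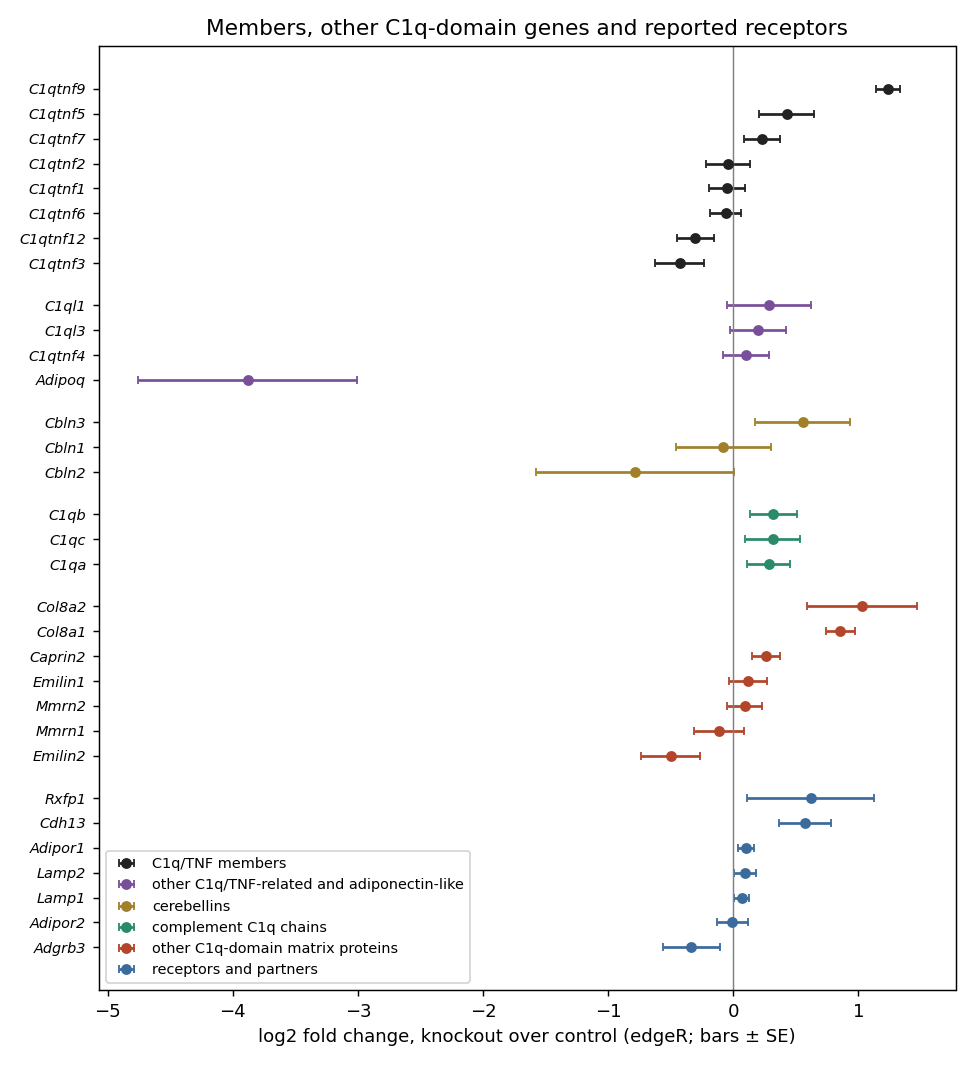
Log2 fold change, knockout over control, with its SE (bars) for the 8 members and the 24 tested relatives and receptors, grouped by kind. C1qtnf9 (1.24), Col8a1 (0.86) and Adipoq (−3.88) lie farthest from 0 relative to their errors.

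Adipoq, the gene of adiponectin itself, stood at 1.24, 0.347 and 0.491 CPM in knockout skin, against 19.9, 2.92 and 7.75 CPM in control skin. All knockout libraries were below all control libraries, but the control values spread over a wide range. The log2 fold change was −3.88 (SE 0.88) and did not pass edgeR's test (adjusted p = 0.308, within a range of 0.00339 to 0.810 over 17 other settings). It was called lower under 2 of the 17, DESeq2 (adjusted p = 0.00339) and edgeR with the replicate block (adjusted p = 0.00602). The 11 white adipocyte markers, of which Adipoq is 1, had a mean log2 CPM of 2.85, 2.47 and 2.63 in knockout skin, against 4.44, 3.27 and 4.01 in control skin. Their summed CPM overlapped between the groups, at 769, 612 and 649 in knockout skin, against 732, 699 and 756 in control skin, and Lep, Cidec and Retn were at or under 3 reads in at least 1 library. Of the 8 adipocyte markers tested, 6 had a log2 fold change below 0 and 2 above it. Plin1 was 1 of the 11 genes called lower over the whole table (adjusted p = 0.0353 by edgeR). C1qtnf9 and Adipoq, related in sequence, thus had log2 fold changes of opposite sign. C1qtnf12, another adipokine gene, had a log2 fold change of −0.30.

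Among the remaining family members, C1qtnf4, whose product carries paired C1q domains, stood at a log2 fold change of 0.10 (SE 0.18; adjusted p = 0.924 by edgeR). The C1q-like genes C1ql1 and C1ql3, which encode synaptic organizers, were at 0.29 (SE 0.34) and 0.20 (SE 0.22), at adjusted p = 0.882 and 0.875 by edgeR. C1ql2 had 0, 0 and 2 reads in knockout and 0 in every control library, and C1ql4 had 0 in all 6, so neither was detected above 3 reads. The cerebellin genes Cbln1, Cbln2 and Cbln3 did not pass edgeR (adjusted p = 0.975, 0.852 and 0.782), and Cbln4 had at most 1 read in a library.

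The complement C1q chains C1qa, C1qb and C1qc, made by tissue macrophages, stood at log2 fold changes of 0.28 (SE 0.17), 0.32 (SE 0.19) and 0.32 (SE 0.22), at adjusted p = 0.754, 0.747 and 0.793 by edgeR. C1qa, for example, had 55.8, 47.7 and 47.1 CPM in knockout skin, against 44.5, 30.7 and 48.4 CPM in control skin, and the groups overlapped.

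Col8a1, which encodes a short-chain network collagen of vessel walls that ends in a C1q domain, was the relative nearest to a call. It stood at 34.6, 42.9 and 41.8 CPM in knockout skin, against 19.9, 24.8 and 21.2 CPM in control skin. Every knockout library was above every control library. The log2 fold change was 0.86 (SE 0.12; adjusted p = 0.0612 by edgeR). It was called higher under 5 of 17 other settings, with adjusted p ranging from 1.43e-06 (DESeq2) to 0.314. Its partner Col8a2 stood at 20.9, 9.27 and 6.72 CPM in knockout skin, against 6.66, 4.61 and 6.81 CPM in control skin, a log2 fold change of 1.03 (SE 0.44; adjusted p = 0.678 by edgeR) that was 0.41 (SE 0.23) without knockout 1.

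Of the other matrix proteins with a C1q domain, Emilin2 stood at −0.50 (SE 0.24; adjusted p = 0.694 by edgeR) and Emilin1 at 0.12 (SE 0.15; adjusted p = 0.890 by edgeR). Emilin2 was called lower by edgeR without knockout 1 and control 1 (adjusted p = 0.0195) and with the hair follicle score (adjusted p = 0.0418). The endothelial multimerin genes Mmrn1 and Mmrn2 were at −0.12 (SE 0.20) and 0.090 (SE 0.14), at adjusted p = 0.923 and 0.907 by edgeR. Caprin2, listed with these genes for its C1q domain, encodes an RNA-binding protein, not a matrix protein. It was at 0.26 (SE 0.11; adjusted p = 0.675 by edgeR). Col10a1 had at most 2 reads in a library and Otol1 had 0 in all 6.

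Of the 8 genes listed as reported receptors and partners, 7 passed the filter on low counts, all but Mfrp. Rxfp1 had only 3 reads in control 3. Adipor1 and Adipor2, the adiponectin receptor genes, stood at 230 ± 9.08 and 137 ± 21.7 CPM in knockout skin, against 215 ± 6.44 and 138 ± 12.1 CPM in control skin (mean ± SD, 3 libraries a group). Their log2 fold changes were 0.10 (SE 0.062) and −0.0066 (SE 0.12), at adjusted p = 0.754 and 0.996 by edgeR. Cdh13, the gene of T-cadherin, which binds adiponectin on vessels, stood at 52.3, 67.4 and 83.9 CPM in knockout skin, against 38.5, 42.9 and 55.5 CPM in control skin. The groups overlapped slightly, and the log2 fold change was 0.57 (SE 0.21; adjusted p = 0.580 by edgeR; adjusted p = 0.0262 with the hair follicle score). Lamp1 and Lamp2, reported to bind CTRP3, were at 0.066 (SE 0.061) and 0.092 (SE 0.089), at adjusted p = 0.837 and 0.845 by edgeR. Adgrb3, the receptor gene of the C1q-like proteins, was at −0.33 (SE 0.22) and Rxfp1 at 0.62 (SE 0.51), both under 2 CPM, at adjusted p = 0.780 and 0.822 by edgeR.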

How the data were processed

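RNA of whole skin was profiled by poly(A) RNA-seq. The authors deposited 1 estimated count of reads per gene and library, not normalized, per the file headers and the values, of which 31.0 to 31.9% were over 0.001 away from a whole number. HISAT2 2.0.4, RSEM 1.2.12, Bowtie2 2.2.5 and GRCm38.p6 are listed in the submitters' processing notes, with no roles. For strand use, the sources used here give nothing. Such counts share reads between overlapping or similar genes by a model.

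Counts were rounded, filtered with filterByExpr (minimum count 10) and scaled by TMM, leaving 15035 genes. edgeR 4.0.16 (R 4.3.3, robust quasi-likelihood test, Benjamini-Hochberg over all genes tested) compared 3 knockout with 3 control libraries, with genotype as the only term. The SE is the absolute log2 fold change over the square root of F. The procedure was tested on simulated data with 100 genes changed 1.5-fold and 100 changed 2-fold. It recovered 30.3% and 72.2% of those that were tested, with 9 false calls, so a gene that did not pass may still differ. The reads per library set the precision: 3 reads were worth 0.147 to 0.155 CPM.

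Coordinates, exons and transcript lengths come from GENCODE M21 (GRCm38) and promoters from RefSeq (GRCm38.p6). Of the gene numbers in the files, 99.32% matched the RefSeq table. Hair follicle and posterior Hox scores are means of log2 CPM with a prior count of 2.

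The members and all lists were chosen with earlier results of these data known. Named were the 8 members, every gene of the relatives and receptors lists, genes within 10 kb of a member where a result turned on them, and for each member the gene or genes with the most similar pattern over the libraries, leaving out predicted and Y-linked genes. Alternatives were other scaling, filters, DESeq2 1.42.0, limma-voom (limma 3.58.1), a non-robust fit, a block for the replicate number, both scores as covariates, and leaving out libraries.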

Additional observations from a re-analysis of the deposited data

How the results depend on the processing

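The number of genes called over the whole table was 24 and depended strongly on the libraries used. It was 38 with no low-count filter, 210 with DESeq2, 15 with limma-voom, 118 with the hair follicle score, 15 with the posterior Hox score, 139 without knockout 1 and control 1, and 1 to 11 with 1 library left out. With the replicate number as a block it was 52. In the labels, same-numbered libraries share only a number. Their deviations from the group means correlated at 0.411, 0.0431 and 0.266. Knockout 1 and knockout 3 correlated best with the control of the same number, and knockout 2 with control 3 (0.184). Whether the numbers mark a true pairing was not tested. Of the 8 members, 1 was called, and 2 without knockout 1 and control 1 (C1qtnf9 higher, C1qtnf3 lower). With 1 library left out the number was 0 to 1, and it stayed at 1 with the replicate block. Among the 30 relatives and receptors the number called was 0, against 1 with no low-count filter, 2 with DESeq2, 2 with the replicate block, 3 with the hair follicle score, 2 without knockout 1 and control 1, and 0 to 0 with 1 library left out. Of 137 values of the members under other settings, 5 moved by more than the spread between replicates, all of them log2 fold changes. The 137 include the control rank of C1qtnf9 by level with median transcript lengths, which has no such spread and stayed at 6.

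Relatives near 0 changed sign, none of them called on either side. With 1 library left out, C1qtnf4 ran from −0.047 to 0.21, C1ql3 from −0.079 to 0.35, Cbln1 from −0.30 to 0.087, Emilin1 from −0.035 to 0.24, Mmrn1 from −0.27 to 0.12, Mmrn2 from −0.0071 to 0.22 and Adipor2 from −0.14 to 0.068. C1ql1 stood at −0.0071 and Mmrn1 at 0.083 with the posterior Hox score, and Cbln1 at 0.21 without knockout 1 and control 1. The cause of these changes was not tested. At 41 to 83 reads per library, C1qtnf5 was the member most limited by depth.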
